A study of Rattus norvegicus with 16 samples.

Results

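The mitochondrial solute carriers of the Slc25 family were examined in dorsal hairy skin of rats. The members were all measured genes whose symbol begins with Slc25a, and there were 40 of them among 14217 genes. The RefSeq annotation of the rat assembly GRCr8 lists 53 protein-coding genes with such a symbol, and the other 13, Slc25a6, Slc25a26 and Slc25a51 among them, were not analysed here. The 40 genes were read by 58 probesets (a probeset is the group of short probes that reports 1 transcript), and 12 genes had more than 1 probeset, for which the median was taken. From general knowledge, 6 members were classed as muscle-type carriers, 16 as broadly expressed and 18 as other carriers. These classes were not tested against expression by tissue, and a muscle-type carrier need not be confined to muscle.

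Carriers of this family sit mostly in the inner mitochondrial membrane, where each moves a particular metabolite, nucleotide or ion between the cytosol and the matrix. The ADP/ATP and phosphate carriers supply the ATP synthase and export its product, the aspartate/glutamate and oxoglutarate/malate carriers together bring the reducing power of cytosolic NADH into the matrix, and others carry citrate, carnitine esters, amino acids, nucleotides and iron. Skeletal muscle is rich in mitochondria and uses its own ADP/ATP carrier isoform, whereas skin, hair follicles and immune cells express other members.

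Each value came from 1 adult female Sprague-Dawley rat, measured on 1 Affymetrix rat expression array. Of the denervated rats, 5 were sampled 14 days and 5 were sampled 7 days after ligation and transection of the left T9 and T10 cutaneous nerves together with a more caudal pair, and there were 6 naïve rats without surgery. Denervated skin was taken from the rostral zone, which had lost its sensory and autonomic axons next to an intact T11 territory, and naïve skin from the same level. Every sample also held the cutaneous trunci muscle, a thin skeletal muscle under the dermis whose own nerve was not cut. The values are log2 signals after robust multi-array averaging (RMA), so a difference of 1 stands for a factor of 2, and signals of different probesets are not comparable as levels. In such mixed tissue, fewer cells of a type and less RNA per cell cannot be told apart.

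Markers of both epidermis and skeletal muscle were present in all groups. Krt14, a basal keratin of epidermis, averaged 13.04 ± 0.12 in 14-day, 13.07 ± 0.27 in 7-day and 13.13 ± 0.10 in naïve skin (SD, n = 5, 5 and 6), and Acta1, skeletal muscle actin, averaged 13.56 ± 0.05, 13.71 ± 0.17 and 13.84 ± 0.22 in the same order. The naïve arrays were not uniform. For a marker score, each gene was centred on its mean of the 16 arrays and the centred values of a list were averaged. On 9 measured hair follicle genes of 19 listed, scores ran from 1.77 to 1.89 at 14 days and from -0.63 to 1.66 at 7 days, while naïve replicates 1 and 2 were at 1.81 and 2.00 and naïve replicates 3 to 6 between -3.97 and -3.73. On 25 sarcomere genes, scores ran from -0.75 to -0.36 at 14 days and from -0.68 to 0.62 at 7 days, with naïve replicates 1 and 2 at -0.17 and -0.74 and naïve replicates 3 to 6 between 0.83 and 1.19. Naïve replicates 4 and 5 also had the lowest macrophage scores (-1.68 and -2.09, 8 genes) and the lowest fibroblast scores (-1.10 and -2.26, 6 genes) of all arrays. On 7 epidermis genes, scores ran from 0.10 to 0.32 at 14 days, from -1.33 to 0.48 at 7 days and from -0.81 to 0.33 in naïve skin. Krt14 and Acta1 alone thus do not show constant tissue content. The lowest correlation between arrays of a group, across genes, was 0.993 at 14 days, 0.974 at 7 days and 0.918 in naïve skin. The probes against the 3′ end of beta-actin minus those against its middle, a measure of RNA quality, gave 0.0452 to 0.276 at 14 days, and 0.202 to 0.29 at 7 days. Of the naïve arrays, replicates 1 and 2 gave 0.176 and 0.228 and the remaining 4 gave 0.519 to 1.2, whereas the same difference for GAPDH ranged from -0.0668 to 0.0461 at 14 days, from -0.108 to 0.0409 at 7 days and from -0.0847 to 0.0238 in naïve skin. The 3′ minus 5′ difference of beta-actin gave 0.465 to 0.736 at 14 days and 0.583 to 0.692 at 7 days. In naïve replicates 1 to 6 it gave 0.614, 0.69, 0.578, 0.499, 0.142 and 0.645, none above the highest denervated array. For GAPDH this difference was 0.32 to 0.372 at 14 days, 0.234 to 0.423 at 7 days and 0.29 to 0.338 in naïve skin. The part of RNA quality in the results was not tested. The labels name no batch. Results are therefore given with and without these pairs of arrays. The pairs were picked with these values known, so a result that passes without a pair is not independent support. A difference from naïve skin is a difference from a group that holds both kinds of array.

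The regions upstream of 4 carriers are shown because they belong to carriers described most closely: Slc25a4, Slc25a12 and Slc25a11 are the muscle-type carriers that fell at 14 days, and Slc25a5 is the broadly expressed counterpart of Slc25a4. Each window, from RefSeq on GRCr8, runs from 250 bases before to 50 bases after the annotated start of the gene, in the direction of transcription, with matches to the searched motifs in capitals.

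Slc25a4, chr16:52805271-52805570, plus strand: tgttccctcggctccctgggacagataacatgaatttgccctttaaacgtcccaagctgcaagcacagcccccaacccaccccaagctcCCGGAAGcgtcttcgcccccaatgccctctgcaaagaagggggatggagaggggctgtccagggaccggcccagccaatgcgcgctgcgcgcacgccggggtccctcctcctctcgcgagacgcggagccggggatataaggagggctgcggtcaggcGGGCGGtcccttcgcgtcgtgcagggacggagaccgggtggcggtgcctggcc
Slc25a12, chr3:76599487-76599786, minus strand: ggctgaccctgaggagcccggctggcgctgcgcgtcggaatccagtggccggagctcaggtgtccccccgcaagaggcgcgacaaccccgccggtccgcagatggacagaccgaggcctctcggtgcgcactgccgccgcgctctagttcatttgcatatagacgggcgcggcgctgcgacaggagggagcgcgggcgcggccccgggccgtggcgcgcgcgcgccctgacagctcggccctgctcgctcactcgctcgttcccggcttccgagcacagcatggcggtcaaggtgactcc
Slc25a11, chr10:55859011-55859310, minus strand: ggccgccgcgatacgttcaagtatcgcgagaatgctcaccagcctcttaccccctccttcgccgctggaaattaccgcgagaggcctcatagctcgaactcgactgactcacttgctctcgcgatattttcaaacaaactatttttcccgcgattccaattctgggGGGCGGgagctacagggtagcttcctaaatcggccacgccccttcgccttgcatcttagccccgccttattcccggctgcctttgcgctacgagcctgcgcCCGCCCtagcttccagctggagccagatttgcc
Slc25a5, chrX:120897366-120897665, plus strand: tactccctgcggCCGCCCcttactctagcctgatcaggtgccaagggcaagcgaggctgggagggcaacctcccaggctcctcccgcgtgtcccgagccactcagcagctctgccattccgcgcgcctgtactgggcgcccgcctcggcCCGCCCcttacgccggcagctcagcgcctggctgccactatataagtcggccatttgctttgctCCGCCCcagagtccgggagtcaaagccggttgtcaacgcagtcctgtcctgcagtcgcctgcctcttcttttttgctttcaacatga

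Of the 40 members, 34 had such a window. On both strands, GGGCGG, the GC box read by Sp1, lay in 25 of the 34 windows and in 34.9% of 27457 rat promoter windows, and CCGGAAG, a core of ETS factors and GABP, lay in 6 of the 34 and in 9.22% of all. AAGGTCA, a half-site of estrogen-related receptors, was in 1 member window (4.37% of all), TATAAA in 2 (14.3% of all) and the 10-letter palindrome of nuclear respiratory factor 1 in none (0.932% of all). No match overlapped another in the 4 windows printed. Slc25a4 held 1 ETS core and 1 GC box, Slc25a11 held 2 GC boxes, Slc25a5 held 3, and these letters were not found in the window of Slc25a12. A match describes the letters only.

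At 14 days after denervation 8 of the 40 carriers were lower than in naïve skin and none was higher (limma, adjusted p under 0.05 over all genes). Of all genes, 14.6% were lower and 8.95% higher in this comparison, so the share of carriers that fell, 20%, was not far from the background. By unadjusted p under 0.05, 9 carriers were lower and 4 higher, against 20.8% and 18.8% of all genes. The median log2 change was -0.11 over the 40 carriers and 0.02 over all genes. The classes differed in these descriptions: 3 of 6 muscle-type carriers fell (median -0.44), as did 4 of 16 broadly expressed carriers (median -0.15) and 1 of 18 other carriers (median 0.04). For 5 carriers, Slc25a12, Slc25a24, Slc25a27, Slc25a33 and Slc25a46, all 14-day arrays lay below all naïve arrays, which was so for 6.66% of all genes, and no carrier had all 14-day arrays above them (3.69% of all genes). The count of lower carriers was 5 without naïve replicate 4 or 6 and 4 without 14-day replicate 5. The count of higher carriers was 4 without naïve replicate 1, 3 without naïve replicate 2 and 1 without 7-day replicate 1.

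At 7 days 2 carriers, Slc25a27 and Slc25a33, were lower than in naïve skin and none was higher, against 2.66% of all genes lower and 7.85% higher. By unadjusted p under 0.05, 10 were lower and 1 higher, against 13.6% and 15.9% of all genes. No carrier had all 7-day arrays below or above all naïve arrays, as 1.35% and 3.31% of all genes had. The median log2 change was -0.09 over the 40 carriers, -0.38 over the muscle-type, -0.04 over the broadly expressed and -0.08 over the other carriers, with -0.02 over all genes. Both times were compared with the same naïve arrays. Between the times, Slc25a21 was higher and Slc25a24 lower at 14 days than at 7 days, against 8.86% of all genes higher and 10.1% lower. All 14-day arrays lay above all 7-day arrays for 3 carriers, Slc25a18, Slc25a21 and Slc25a37 (9.07% of all genes), and below them for 2, Slc25a12 and Slc25a28 (11.6% of all genes). By unadjusted p under 0.05, 5 were higher and 3 lower between the times, against 17.8% and 18.7% of all genes. The count of lower carriers at 7 days was 5 without naïve replicate 1 and 7 without naïve replicate 2, and 0 or 1 without any other single array.

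**Figure D1:**
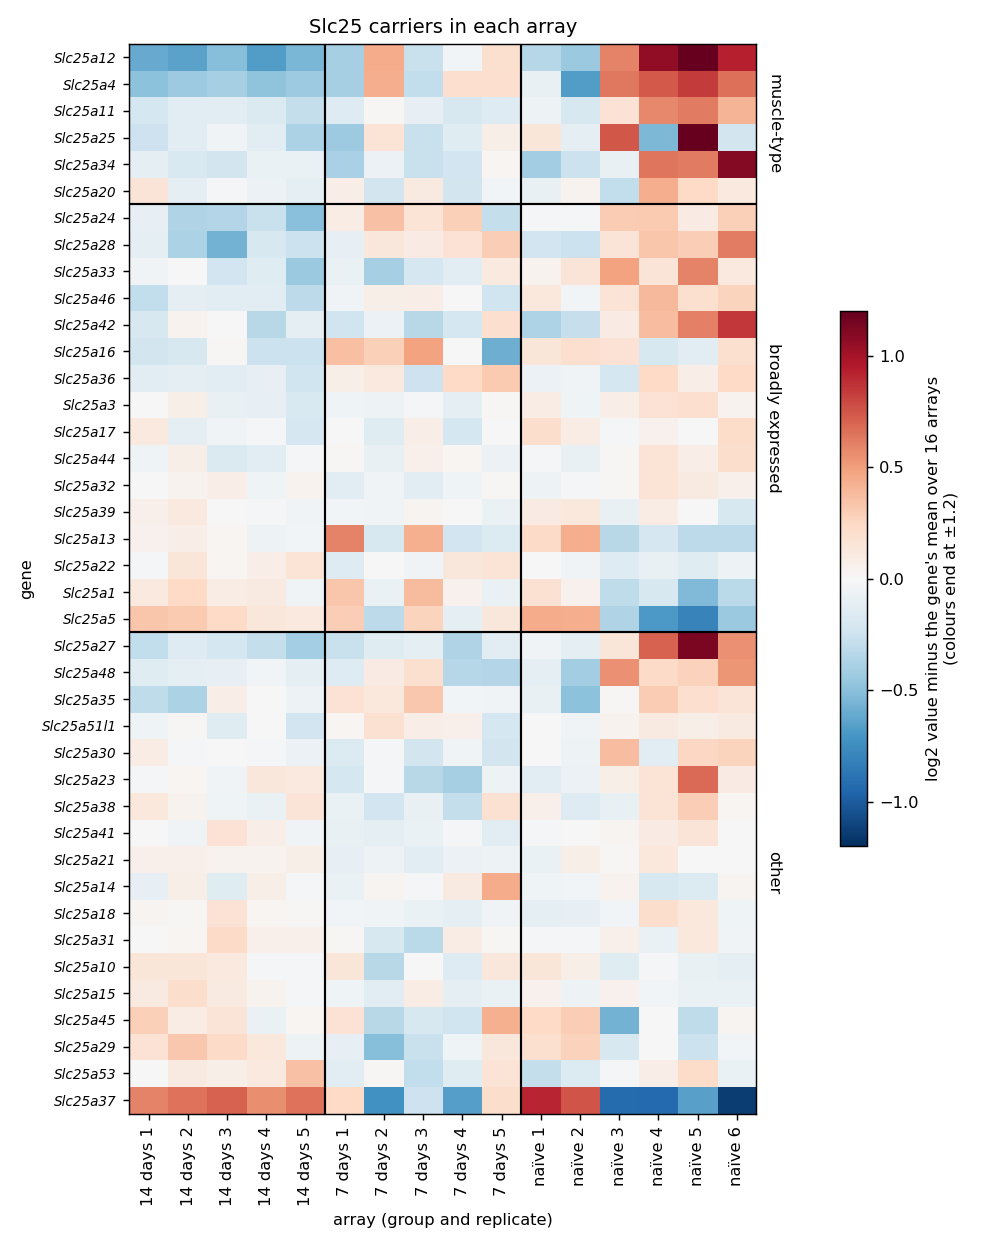
The 40 carriers (rows, grouped as muscle-type, broadly expressed and other, each ordered by the log2 change at 14 days) in each of the 16 arrays (columns, grouped as 14 days, 7 days and naïve). Colour gives the log2 value minus the gene's mean over the 16 arrays. The 14-day columns resemble one another, while naïve replicates 1 and 2 differ in colour from naïve replicates 3 to 6 for Slc25a4, Slc25a5, Slc25a12, Slc25a37 and others.

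The carriers varied less among 14-day arrays than among naïve arrays. The median SD of a carrier was 0.10 at 14 days, 0.17 at 7 days and 0.19 in naïve skin, and over all genes it was 0.10, 0.15 and 0.18 in the same order. A smaller SD at 14 days than in naïve skin was found for 32 of the 40 carriers (80%) and for 81.1% of all genes.

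Among the carriers that serve ATP synthesis, Slc25a4, the ADP/ATP carrier isoform of heart and skeletal muscle, had log2 signals of 11.92, 11.97, 12.01, 11.92 and 11.97 in 14-day arrays, of 12.01, 12.85, 12.11, 12.61 and 12.61 in 7-day arrays, and of 11.74 (lowest), 13.05 (median) and 13.24 (highest) in naïve arrays. The 14-day arrays lay close together, and naïve replicates 1 and 2, at 12.31 and 11.74, were the only naïve arrays under 13. Slc25a4 fell by 0.80 at 14 days (standard error 0.24, adjusted p = 0.0292), to 0.575 of the naïve signal. The call was lost without any 1 of naïve replicates 3 to 6 or of the 14-day arrays, with log2 changes of -0.81 to -0.70, and without naïve replicates 4 and 5 together (-0.58, adjusted p = 0.151). The change was -0.0298 with the sarcomere score as a covariate (adjusted p = 0.831) and -0.0504 with the hair follicle score (adjusted p = 0.876). The 7-day change was -0.32 ± 0.24 (standard error, adjusted p = 0.381).

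Slc25a5, the ADP/ATP carrier of most dividing and non-muscle cells, had signals of 12.34, 12.33, 12.25, 12.15 and 12.13 at 14 days, of 12.31, 11.70, 12.28, 11.91 and 12.15 at 7 days, and of 11.21, 11.61 and 12.46 (lowest, median and highest) in naïve skin. Here naïve replicates 1 and 2 were the highest of all arrays, at 12.46 and 12.45, and naïve replicates 3 to 6 the lowest, at 11.21 to 11.65. The change was 0.46 at 14 days (standard error 0.21, adjusted p = 0.118) and 0.29 at 7 days (adjusted p = 0.37), and neither passed. It passed without naïve replicate 1 or 2, at 0.60 each. RefSeq lists 9 pseudogenes of Slc25a5, and whether its probeset also reads them was not tested. Slc25a3, the phosphate carrier, spanned a narrow range, with 11.91 to 12.17 at 14 days, 11.98 to 12.11 at 7 days and 12.04 to 12.30 in naïve skin (14-day change -0.15, adjusted p = 0.0647). It passed without naïve replicate 2 and without 14-day replicate 2, at -0.18 each.

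Within an array, the difference Slc25a4 minus Slc25a5 compares both ADP/ATP carriers without regard to array scaling. Only its shift between groups can be read, because the probesets differ. It was -0.42, -0.35, -0.24, -0.23 and -0.16 at 14 days, -0.30, 1.15, -0.16, 0.71 and 0.46 at 7 days, and -0.15 and -0.72 in naïve replicates 1 and 2 against 1.39 to 2.04 in naïve replicates 3 to 6. The group means differed by -1.26 between 14-day and naïve skin (exact two-sided permutation test over 462 regroupings, p = 0.0498, adjusted p = 0.1 over 9 such tests), by -0.61 between 7-day and naïve skin (p = 0.294 by the same exact test) and by -0.65 between 14 and 7 days (p = 0.0556, exact test over 252 regroupings). None of these passed after adjustment. Without naïve replicate 2 the 14-day shift was -1.60 and passed, and without naïve replicates 1 and 2 it was -1.97. Both arrays lay with or near the 14-day arrays and were singled out from these same data, so leaving them out widens this shift by construction.

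The malate-aspartate shuttle rests on the oxoglutarate/malate carrier Slc25a11 and on the calcium-activated aspartate/glutamate carriers Slc25a12 and Slc25a13. Slc25a12 is found mainly in muscle and brain, and Slc25a13, abundant in liver, was classed here as broadly expressed. Slc25a12 had the lowest log2 change of the family at 14 days against naïve skin. Its signals were 7.92, 7.88, 8.02, 7.86 and 7.98 at 14 days, 8.13, 8.97, 8.26, 8.50 and 8.72 at 7 days, and 8.09, 9.29 and 9.76 (lowest, median and highest) in naïve skin. The 14-day and naïve arrays did not overlap, and the 14-day and 7-day arrays did not either. The 14-day minus 7-day change, -0.58, did not pass in the limma model of all groups (adjusted p = 0.155). Slc25a12 fell by 1.10 at 14 days (standard error 0.28, adjusted p = 0.0148), to 0.465 of the naïve signal, and passed without any single array. It was lost without naïve replicates 4 and 5 together (-0.78, adjusted p = 0.0791), and lay at -0.25 with the sarcomere score as a covariate (adjusted p = 0.276) and at -0.23 with the hair follicle score (adjusted p = 0.448). Naïve replicates 1 and 2 lay at 8.19 and 8.09 and the other naïve arrays at 9.13 to 9.76. The 7-day change was -0.52 (adjusted p = 0.22).

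Slc25a11 had signals of 9.76, 9.85, 9.83, 9.80 and 9.69 at 14 days, 9.82, 9.99, 9.87, 9.78 and 9.82 at 7 days, and 9.78, 10.27 and 10.59 (lowest, median and highest) in naïve skin. It fell by 0.44 at 14 days (standard error 0.13, adjusted p = 0.0241), and was lost without naïve replicate 4 (-0.38), naïve replicate 6 (-0.41) or 14-day replicate 5 (-0.42). Both groups of denervated arrays lay at the low end of the naïve range, beside naïve replicates 1 and 2. The 7-day change was -0.37 (adjusted p = 0.0684). Slc25a13 ran the other way among naïve arrays, at 6.94 and 7.14 in replicates 1 and 2 and 6.38 to 6.51 in the others, with 6.65 to 6.80 at 14 days and 6.48 to 7.31 at 7 days. Its changes were 0.10 at 14 days and 0.17 at 7 days (adjusted p = 0.705 and 0.525).

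The difference Slc25a12 minus Slc25a13 averaged 1.21 ± 0.09 at 14 days, 1.72 ± 0.71 at 7 days and 2.41 ± 1.04 in naïve skin (SD, n = 5, 5 and 6). The shift at 14 days, -1.2, did not pass (exact permutation test, p = 0.0541, adjusted p = 0.1), and neither did that at 7 days, -0.69 (exact p = 0.238), nor that between the times, -0.51 (exact p = 0.159). Without naïve replicates 1 and 2 the shifts from naïve skin were -1.86 at 14 days and -1.35 at 7 days, and both passed. These 2 arrays, at 1.25 and 0.94, lay beside the 14-day arrays and were singled out from these same data. Leaving them out thus widens the shifts from naïve skin by construction, and the passes are not further support.

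**Figure D2:**
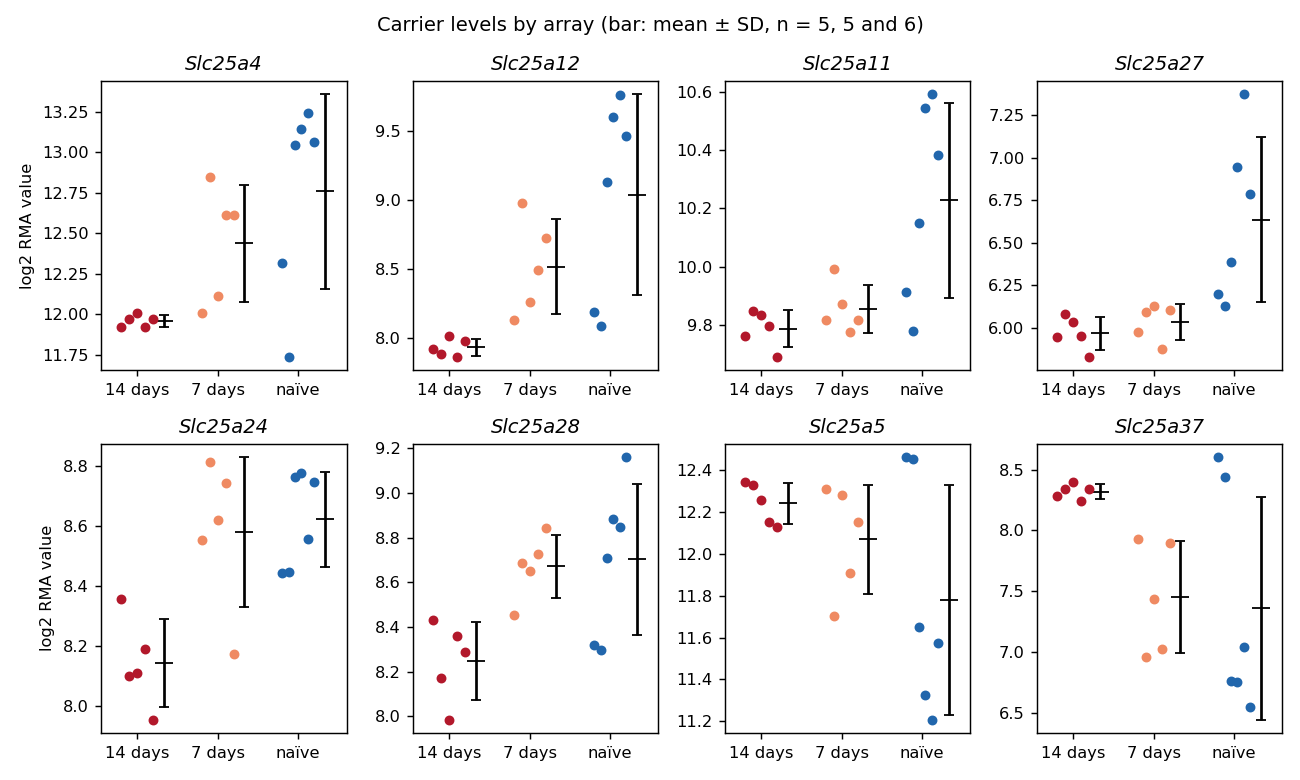
Log2 RMA signal (vertical axis) of 8 carriers in each array (points), by group, with the mean ± SD beside the points (n = 5 at 14 days, 5 at 7 days and 6 naïve). The 14-day points of Slc25a4, Slc25a12 and Slc25a37 span less than 0.2, while the naïve points of these genes fall into an upper and a lower set.

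Of the other muscle-type carriers, none passed in any comparison. Slc25a25, a calcium-regulated ATP-Mg/phosphate carrier, ranged from 7.01 to 7.35 at 14 days, from 6.95 to 7.55 at 7 days and from 6.84 to 8.91 in naïve skin (14-day change -0.44, adjusted p = 0.247). Slc25a34 was dim, within the lowest 25% of all genes by mean signal, with changes of -0.40 at 14 days and -0.45 at 7 days (adjusted p = 0.184 and 0.183), and its naïve replicates 4 to 6 were at 6.09 to 6.57 where no other array exceeded 5.50. Slc25a20, the carnitine/acylcarnitine carrier that brings long-chain fatty acids to the matrix, had changes of -0.11 and -0.13 at 14 and 7 days (adjusted p = 0.504 and 0.448), with a naïve range of 7.68 to 8.41 around the denervated arrays at 7.75 to 8.13.

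Mitochondrial iron import is served by a pair of carriers. Slc25a37, mitoferrin-1, the iron importer of erythroid cells, had signals of 8.28, 8.34, 8.39, 8.24 and 8.34 at 14 days, 7.93, 6.96, 7.44, 7.03 and 7.90 at 7 days, and 6.55, 6.90 and 8.60 (lowest, median and highest) in naïve skin. Every 14-day array lay above every 7-day array, but naïve replicates 1 and 2, at 8.60 and 8.44, exceeded both. The 14-day change of 0.96 was the highest in the family and did not pass (standard error 0.35, adjusted p = 0.0577). It passed without naïve replicate 1 (1.21) or 2 (1.18). The 14-day minus 7-day change, 0.87, did not pass (adjusted p = 0.102). Settings in which it passed included a model of only the compared groups, array weights and the hair follicle score as a covariate. It also passed without naïve replicates 1 and 2. The 5 measured erythroid markers had score ranges of -0.13 to 0.45 at 14 days, -0.28 to 0.31 at 7 days and -0.28 to 0.14 in naïve skin, and 1 of the 5 was higher at 14 days than in naïve skin. The part of erythroid cells or hair follicles in the Slc25a37 signal was not tested.

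Slc25a28, mitoferrin-2, the widely expressed iron importer, had signals of 8.43, 8.17, 7.98, 8.36 and 8.29 at 14 days, 8.45, 8.69, 8.65, 8.72 and 8.84 at 7 days, and 8.30, 8.78 and 9.16 (lowest, median and highest) in naïve skin. It fell by 0.46 at 14 days (standard error 0.14, adjusted p = 0.0324), and lay at -0.03 at 7 days (adjusted p = 0.898). All 14-day arrays were below all 7-day arrays, with a difference of -0.42 that did not pass (adjusted p = 0.0547). Settings in which this difference passed included a model of only the compared groups, array weights, the replicate block and the hair follicle score as a covariate. It also passed without naïve replicates 1 and 2. The 14-day call was lost without any 1 of naïve replicates 3 to 6 or of 14-day replicates 2, 3 and 5, with changes of -0.47 to -0.36.

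Slc25a37 minus Slc25a28 was -0.15, 0.17, 0.41, -0.12 and 0.05 at 14 days and -0.53, -1.73, -1.21, -1.70 and -0.94 at 7 days. In naïve replicates 1 and 2 it was 0.29 and 0.14, and in naïve replicates 3 to 6 it was -2.61 to -1.81. The shift between 14 and 7 days was 1.29 with no overlap (exact permutation test, p = 0.00794, the smallest that 252 regroupings can give, adjusted p = 0.0714). The shift was 1.42 between 14-day and naïve skin (exact p = 0.0498, adjusted p = 0.1) and 0.12 between 7-day and naïve skin (exact p = 0.833). Leaving out naïve replicate 2, which enters other tests of the adjusted family, brought the 14-day minus 7-day result under the threshold at the same 1.29.

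Among nucleotide carriers, Slc25a24, a calcium-regulated ATP-Mg/phosphate carrier of many tissues, had 8.36, 8.10, 8.11, 8.19 and 7.95 at 14 days, 8.55, 8.81, 8.62, 8.74 and 8.17 at 7 days, and 8.44, 8.65 and 8.77 (lowest, median and highest) in naïve skin. Its 14-day arrays lay below all naïve arrays, including naïve replicates 1 and 2 at 8.44 and 8.45. Slc25a24 fell by 0.48 at 14 days against naïve skin (standard error 0.11, adjusted p = 0.01) and by 0.44 against 7 days (standard error 0.12, adjusted p = 0.0202), and lay at -0.04 at 7 days against naïve skin (adjusted p = 0.819). The call against naïve skin held without any single array. That against 7 days was lost without 7-day replicate 2 (-0.38), 7-day replicate 4 (-0.40) or 14-day replicate 5 (-0.39).

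Slc25a33, a pyrimidine nucleotide carrier, had 6.46, 6.50, 6.27, 6.35 and 6.05 at 14 days, 6.42, 6.10, 6.29, 6.36 and 6.61 at 7 days, and 6.54, 6.65 and 7.09 (lowest, median and highest) in naïve skin. Slc25a33 fell at both times, by 0.43 at 14 days (adjusted p = 0.0208) and by 0.40 at 7 days (adjusted p = 0.0423). Without 14-day replicate 5 the 14-day change was -0.36 and did not pass. The 7-day call held without naïve replicate 1 or 2, 7-day replicate 5, or 14-day replicate 2 or 5, and was lost without any other single array, with changes of -0.43 to -0.33. Slc25a36, which also carries pyrimidine nucleotides, ranged from 7.96 to 8.10 at 14 days, from 7.95 to 8.52 at 7 days and from 7.99 to 8.44 in naïve skin (14-day change -0.18, adjusted p = 0.183). Its probesets differed, at -0.34 for the brighter and -0.03 for the dimmer at 14 days. With the brighter probeset alone, Slc25a36 was called lower at 14 days against naïve skin and against 7 days. Slc25a23, another calcium-regulated ATP-Mg/phosphate carrier, had changes of -0.09 at 14 days and -0.34 at 7 days (adjusted p = 0.581 and 0.0759).

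Slc25a27, also called uncoupling protein 4 and described mainly in nervous tissue, had 5.95, 6.08, 6.03, 5.95 and 5.83 at 14 days, 5.98, 6.09, 6.13, 5.88 and 6.11 at 7 days, and 6.13, 6.58 and 7.37 (lowest, median and highest) in naïve skin. Its 3 probesets changed by -0.41, -0.67 and -1.07 at 14 days and by -0.38, -0.62 and -0.74 at 7 days. Slc25a27 fell by 0.67 at 14 days (standard error 0.18, adjusted p = 0.0189) and by 0.60 at 7 days (standard error 0.18, adjusted p = 0.0425). The 14-day call held without any single array. The 7-day call held without naïve replicate 1, 2 or 3, and was lost without any other single array, with changes of -0.62 to -0.45. Naïve replicates 4 to 6 were the highest arrays, at 6.78 to 7.37.

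Slc25a46, a family member of the outer mitochondrial membrane that takes part in fission and fusion, had 7.73, 7.92, 7.90, 7.90 and 7.71 at 14 days, 7.99, 8.10, 8.11, 8.03 and 7.79 at 7 days, and 8.0, 8.21 and 8.42 (lowest, median and highest) in naïve skin. It had the lowest adjusted p of the family at 14 days, falling by 0.38 (standard error 0.08, adjusted p = 0.006), and passed without any single array. At 7 days its change was -0.21 (adjusted p = 0.0891).

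The remaining named carriers did not pass at either time against naïve skin. Slc25a1, the citrate carrier that feeds lipid synthesis, was at 9.53 to 9.81 at 14 days, 9.5 to 9.95 at 7 days and 9.05 to 9.76 in naïve skin, with changes of 0.29 and 0.31 at 14 and 7 days (adjusted p = 0.0947 and 0.111). Slc25a42, a coenzyme A carrier, had changes of -0.34 and -0.35 (adjusted p = 0.196 and 0.234), and Slc25a16 changes of -0.24 and 0.04. Slc25a48 lay at -0.28 and -0.29, Slc25a35 at -0.15 and 0.10, and Slc25a53 at 0.17 and -0.04. Slc25a29, a carrier of basic amino acids, was at 0.16 and -0.16, and its 14-day minus 7-day change of 0.32 did not pass (adjusted p = 0.0788).

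Slc25a21, the oxoadipate carrier of lysine and tryptophan breakdown, was higher at 14 than at 7 days, by 0.14 (standard error 0.04, adjusted p = 0.0384). No other carrier was called higher between these times in the model of all groups. A model of only the compared groups also called Slc25a23 and Slc25a37 higher, against 13.2% of all genes. The Slc25a21 signals of 4.88 to 4.91 at 14 days, 4.71 to 4.78 at 7 days and 4.76 to 4.96 in naïve skin put it within the lowest 25% of all genes by mean signal, and 9 of the 16 runs without 1 array lost the call, namely those without 7-day replicates 1 to 4 or any 14-day array (0.13 to 0.14). The other 15 carriers, among them the glutamate carriers Slc25a18 and Slc25a22, the ornithine carrier Slc25a15, the glycine carrier Slc25a38 and the glutathione carrier Slc25a39, passed in no comparison of the main fit (median over probesets, all groups), with changes of -0.15 to 0.16 at 14 days and -0.25 to 0.16 at 7 days. Slc25a10, also among them, had probesets at 0.37 (brighter) and -0.17 at 14 days, and was called higher with the brighter one alone.

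**Figure D3:**
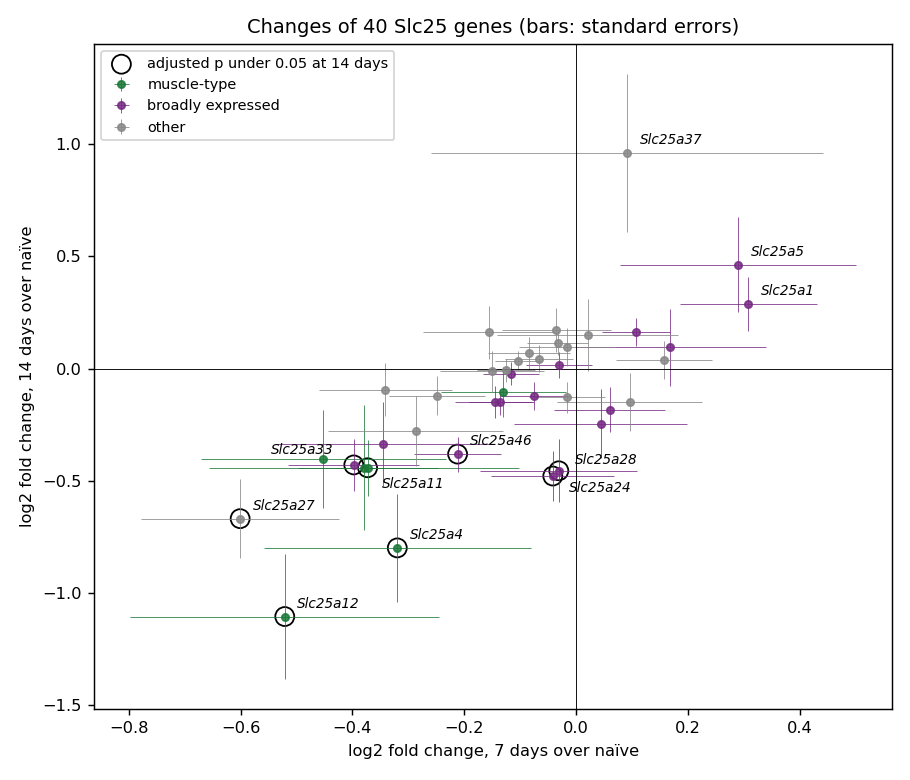
Log2 fold change of each of the 40 carriers at 14 days over naïve (vertical axis) and at 7 days over naïve (horizontal axis), with standard errors, coloured by class. Both axes share the naïve arrays. The 8 carriers circled passed at 14 days, and all 6 muscle-type carriers lie below 0 on both axes.

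The 6 muscle-type carriers were below 0 at both times, while 5 of the 16 broadly expressed carriers had positive changes at 14 days and 6 at 7 days. Of the 18 other carriers, 8 were below 0 at 14 days and 14 at 7 days. Of all 40 carriers, 25 and 30 were below 0. The median over all genes was 0.02 at 14 days and -0.02 at 7 days. The share of all genes below 0 was not counted, so these signs are not read as a trait of the family. Sarcomere genes moved in the same direction as the muscle-type carriers: 14 of 25 fell at 14 days (median -0.96), and none passed at 7 days (median -0.43). With the sarcomere score as a covariate, 1 carrier was lower at 14 days, Slc25a13, which was not among the 8, at -0.42, against 1.72% of all genes lower. The 8 carriers had changes of -0.36 (Slc25a24) to -0.0298 (Slc25a4) in that fit. When the hair follicle score was the covariate, none of the 40 was called at 14 days, against 1.56% of all genes lower and 0.563% higher, and Slc25a37 was lower at 7 days, at -0.68, against 5.35% of all genes lower. The 8 carriers then had 14-day changes of -0.32 (Slc25a33) to -0.0504 (Slc25a4). Of the hair follicle genes 8 of 9 were higher at 14 days (median 3.82), and of the macrophage genes 7 of 8 were higher at 7 days (median 1.67). Without naïve replicates 1 and 2 together, 14 carriers were lower at 14 days, the 8 among them, and 4 were higher, Slc25a1, Slc25a5, Slc25a22 and Slc25a37, while at 7 days 13 were lower and 3 higher. Of all genes, 21.8% were lower and 21.1% higher at 14 days in that fit, and 16.4% and 19% at 7 days. Without naïve replicates 4 and 5 together, 3 carriers were lower at 14 days, Slc25a24, Slc25a27 and Slc25a46 (4.98% of all genes), and none passed at 7 days. Both scores came from the same arrays and moved with the groups and with the 2 kinds of naïve array. The covariate fits therefore cannot separate muscle or hair follicle content from denervation. The part of such content in these differences was not tested.

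**Figure D4:**
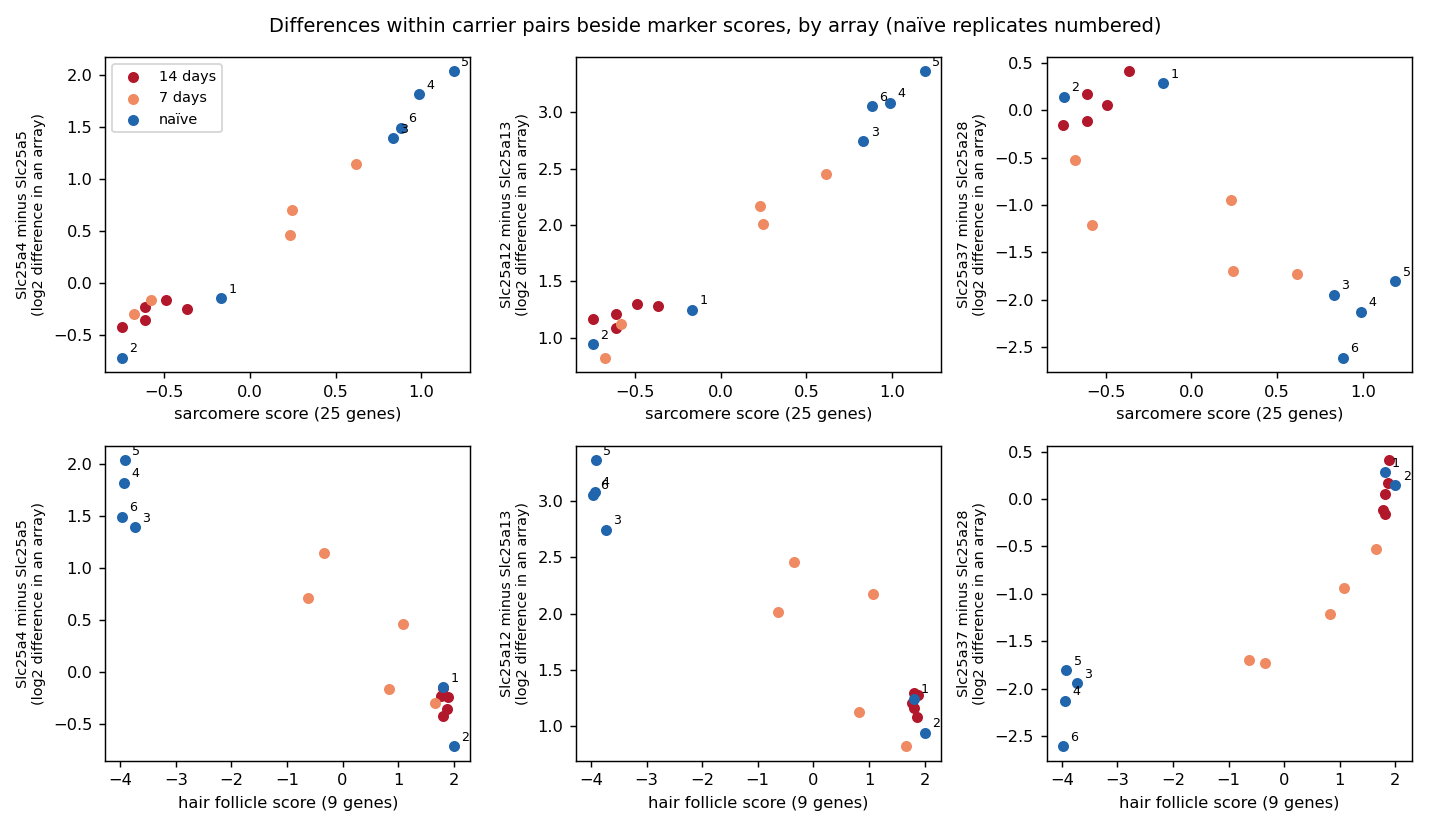
Difference of log2 signals within 3 carrier pairs (vertical axes) against the sarcomere score (upper row) and the hair follicle score (lower row) of the same array, with 14-day, 7-day and naïve arrays coloured and naïve replicates numbered. Naïve replicates 1 and 2 lie with the 14-day arrays in all 6 panels, and naïve replicates 3 to 6 lie at the opposite end.

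The genes around the carriers were described from fixed lists. Of 16 genes for importing carriers through the outer and inner membranes, 3 fell at 14 days and none rose, with a median of -0.08: Timm8b, a small chaperone of the intermembrane space (-0.52, adjusted p = 0.00471), and Tomm7 and Tomm5, small subunits of the outer membrane translocase (-0.21 and -0.30). Of 17 other mitochondrial transport genes, 9 fell and 2 rose (median -0.21, range -0.91 to 1.66). In this list and the next, genes are named by the 4 largest statistics, and these were all falls at 14 days. Those that fell included the voltage-dependent anion channels of the outer membrane Vdac2 (-0.40, adjusted p = 0.00381) and Vdac3 (-0.91, adjusted p = 0.00869), Mtch2 (-0.39), and Smdt1, a subunit of the calcium uniporter (-0.29). Of 14 shuttle and partner enzymes, 7 fell and 1 rose (median -0.43, range -1.94 to 1.63). Mdh1, the cytosolic malate dehydrogenase, averaged 9.52 at 14 days and 10.23 in naïve skin (-0.71, adjusted p = 0.00364), and Got2, the mitochondrial aspartate aminotransferase, fell by 0.36. The glycerol phosphate dehydrogenases Gpd1 and Gpd2 fell by 1.32 and 0.93 (adjusted p = 0.00421 and 0.0156). At 7 days none of the import and transport genes passed, and 3 shuttle and partner enzymes fell, Gpd1 by 0.98, Ckmt1, a mitochondrial creatine kinase, by 0.52 and Me1, malic enzyme, by 0.36. In all, 22 of these genes passed at 14 days and 3 at 7 days. Of all genes, 14.6% fell and 8.95% rose at 14 days, and 2.66% fell and 7.85% rose at 7 days. The 14-day count was 13 without naïve replicate 4 or 14-day replicate 5, and the 7-day count was 9 without naïve replicate 1, 16 without naïve replicate 2, 5 without naïve replicate 3 and 1 without naïve replicate 4, naïve replicate 5 or 7-day replicate 4.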

How the data were processed

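RNA from 16 skin samples was hybridised to 1 array each. The deposited values are log2 signals that the authors made by robust multi-array averaging (RMA) with R 3.0.1, as their processing notes name it. The RMA version was not given in the sources used here. As in the study's methods, of 31099 probesets 57 controls, 9780 without a gene and 436 with several genes (2 of these for Slc25a) were left out, and the 20826 that remained were collapsed to the median per gene. Gene names were matched by Entrez identifier to RefSeq on GRCr8, and 68 probesets without a match kept the platform's name.

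Groups were compared in R 4.3.3 with limma 3.58.1, in 1 model with a mean for each group, with Benjamini-Hochberg adjustment over 14217 genes and a threshold of 0.05. The test was run first on simulated data with independent noise and 1 SD per gene for all groups. That run could not check the test under the unequal spread and mixed naïve arrays of these data. Differences within 3 carrier pairs were compared by exact two-sided permutation tests (Python 3.11.15 with numpy 2.4.6), adjusted over 9 tests. Arrays were counted as separate animals, and their number limits precision. RMA compresses differences of dim genes, and 6 carriers lay in the lowest 25% of genes, under a mean signal of 5.50.

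Members are named where they passed in any comparison or were among the 12 largest changes in one, with 8 named in every case, and related genes by the 4 largest statistics per list. The members, lists and alternatives were chosen with earlier results of these data known. The alternatives changed the collapse of probesets, scaling, dim genes, the weights of arrays, the moderation, the groups fitted together, a replicate block, covariates, the threshold and the arrays left out.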

Additional observations from a re-analysis of the deposited data

Results flagged for a closer look

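In 3 of 75 groups of arrays examined, 1 array stood far from the others, where chance gives about 1 in 20 groups. Slc25a16 was at 7.23 in 14-day replicate 3, above 6.96 to 7.02 in the other 14-day arrays. Slc25a36 was at 7.96 in 14-day replicate 5, below 8.07 to 8.10 in the other 14-day arrays. Slc25a23 was at 6.22 in naïve replicate 5, above 5.42 to 5.70 in the other naïve arrays.

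The change from naïve skin differed between the times for 2 carriers, by the limma test of 14 against 7 days. The difference was 0.14 for Slc25a21, whose signal is dim, and -0.44 for Slc25a24.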

How the results depend on the processing

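The counts of carriers past the threshold depended on the naïve arrays and on the fit, and the medians of the muscle-type carriers moved with both. Those medians, -0.44 at 14 days and -0.38 at 7 days, were -0.0882 and -0.16 with the sarcomere score, -0.0699 and -0.0861 with the hair follicle score, -0.67 and -0.62 without naïve replicates 1 and 2, and -0.30 and -0.20 without naïve replicates 4 and 5. The 14-day medians of the broadly expressed carriers were -0.12 and -0.0858 with these scores. Counts are given as higher and lower carriers, then related genes (import, transport and shuttle genes together). For 14 days against naïve skin they were 0, 8 and 22, for 7 days against naïve skin 0, 2 and 3, and for 14 against 7 days 1, 1 and 7, and only counts that moved by over 1.5 times follow. The cause of these shifts was not tested. A stricter threshold calls fewer genes by construction, and the pairs of naïve arrays left out were picked from these same data.

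With the probeset of highest mean, 1 carrier, Slc25a10, was higher at 14 days (8.88% of all genes). At 14 against 7 days 3 were then lower, Slc25a24, Slc25a36 and Slc25a46 (12.7% of all genes). With the array median subtracted, 11 carriers were lower (10.5% of all genes) and 9 related genes passed at 7 days. The median of the broadly expressed carriers at 7 days was then -0.11 (main value -0.04). At 14 against 7 days, 3 carriers were higher (14.6% of all genes) and 1 related gene passed. After quantile normalization again, 4 carriers were higher and 5 lower at 14 days (9.73% and 14.4% of all genes). At 7 days 5 were lower (5.13% of all genes) with 8 related genes. At 14 against 7 days 2 were higher and 0 lower (6.35% and 5.16% of all genes) with 4 related genes. Without the dimmest 25% of genes, 0 carriers were higher (5.31% of all genes) and 3 related genes passed at 14 against 7 days. With array weights, 6 were higher and 16 lower at 14 days (25.1% and 24% of all genes). At 7 days 2 were higher and 11 lower (15% and 12%) with 20 related genes (broadly expressed median -0.12). At 14 against 7 days 4 were higher and 4 lower (15.9% and 18.2% of all genes) with 15 related genes. Trend and robust moderation gave 4 related genes at 14 against 7 days. When a model held only the compared groups, 0 carriers were lower (0.218% of all genes) and 0 related genes passed at 7 days. At 14 against 7 days, 3 were then higher (Slc25a21, Slc25a23 and Slc25a37) and 4 lower (Slc25a4, Slc25a12, Slc25a24 and Slc25a28), and 21 related genes passed. Of all genes, 13.2% were higher and 17.7% lower between the times in that fit. At an adjusted p under 0.01, 1 carrier was lower (4.43% of all genes) with 7 related genes at 14 days, and 0 were called in the other comparisons, related genes included.

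With the sarcomere score as a covariate, 1 carrier was lower (1.72% of all genes) with 1 related gene at 14 days, and 0 were lower at 7 days (3.33%). At 14 against 7 days 4 were higher and 2 lower (9.91% and 11.2% of all genes) with 2 related genes. With the hair follicle score, 0 were lower (1.56% of all genes) with 0 related genes at 14 days (broadly expressed median -0.0858). At 7 days 1 was lower (5.35% of all genes) with 5 related genes. At 14 against 7 days 2 were higher and 2 lower (11% and 12.6% of all genes). With Slc25a4, Slc25a12 and Slc25a20 alone as muscle-type carriers, their median was -0.80 at 14 days (main value -0.44) and -0.48 for 14 minus 7 days (main value -0.07).

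Without naïve replicates 1 and 2 together, 4 carriers were higher and 14 lower at 14 days (21.1% and 21.8% of all genes). At 7 days 3 were higher and 13 lower (19% and 16.4%) with 26 related genes (broadly expressed median -0.12). At 14 against 7 days 3 were higher and 4 lower (13.8% and 16.2% of all genes) with 18 related genes. Without these 2 arrays, 7 of the 9 pair tests passed: Slc25a4 minus Slc25a5 at 14 and 7 days (-1.97 and -1.31), Slc25a12 minus Slc25a13 at both times (-1.86 and -1.35), and Slc25a37 minus Slc25a28 at both times (2.20 and 0.90) and at 14 against 7 days (1.29). Since both arrays lay near the 14-day arrays in these differences, the wider shifts from naïve skin follow from leaving them out. Without naïve replicates 4 and 5 together, 3 carriers were lower (4.98% of all genes) with 7 related genes at 14 days. At 7 days 0 were lower (0.324% of all genes) with 0 related genes, and at 14 against 7 days 2 were higher (10.6% of all genes). Slc25a37 minus Slc25a28 at 7 days turned to -0.19.

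Many named carriers turned sign in the covariate fits. With the sarcomere score these were, at 14 days, Slc25a5 (-0.17), Slc25a13 (-0.42), Slc25a1 (-0.0479), Slc25a23 (0.14), Slc25a29 (-0.0437), Slc25a34 (0.0919), Slc25a35 (0.0676), Slc25a42 (0.12) and Slc25a48 (0.0046), and at 7 days Slc25a4 (0.064), Slc25a5 (-0.0262), Slc25a13 (-0.087), Slc25a16 (-0.0572), Slc25a24 (0.0179), Slc25a28 (0.12), Slc25a37 (-0.37) and Slc25a53 (0.067). With the hair follicle score they were, at 14 days, Slc25a5 (-0.22), Slc25a13 (-0.37), Slc25a37 (-0.22), Slc25a1 (-0.0206), Slc25a23 (0.11), Slc25a29 (-0.0821), Slc25a34 (0.17), Slc25a35 (0.12), Slc25a42 (0.15) and Slc25a48 (0.12), and at 7 days Slc25a4 (0.17), Slc25a5 (-0.16), Slc25a12 (0.0531), Slc25a13 (-0.14), Slc25a16 (-0.0226), Slc25a24 (0.0953), Slc25a28 (0.22), Slc25a37 (-0.68) and Slc25a53 (0.0732). Of these turned changes, 2 passed the threshold, Slc25a13 with the sarcomere score at 14 days and Slc25a37 with the hair follicle score at 7 days. Without naïve replicates 4 and 5 they were Slc25a20 (0.0262) and Slc25a23 (0.048) at 14 days, and Slc25a20 (0.0019), Slc25a16 (-0.0705), Slc25a28 (0.0504), Slc25a37 (-0.14) and Slc25a53 (0.0604) at 7 days. Without naïve replicates 1 and 2 the 7-day change of Slc25a35 was -0.0571, and with array weights that of Slc25a36 was -0.0474. In the remaining settings signs were followed only for the carriers called and for Slc25a3, Slc25a5, Slc25a13, Slc25a20 and Slc25a37. Between 14 and 7 days, Slc25a3, Slc25a5, Slc25a11, Slc25a25, Slc25a27 and Slc25a33 turned sign with either score, and Slc25a25 and Slc25a48 with array weights.

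With 1 array left out at a time, higher carriers numbered 0 to 4 at 14 days, 0 to 1 at 7 days and 0 to 2 at 14 against 7 days, and lower carriers 4 to 10, 0 to 7 and 0 to 2 in the same order. Related genes numbered 13 to 26, 1 to 16 and 0 to 10. Slc25a4 minus Slc25a5 at 14 days ran from -1.60 to -1.05, Slc25a37 minus Slc25a28 from 1.17 to 1.47 at 14 against 7 days and from -0.13 to 0.45 at 7 days. At 7 days the change of Slc25a28 ran from -0.112 to 0.0611 and that of Slc25a37 from -0.0704 to 0.341.

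Samples are not paired by their replicate numbers: deviations of same-numbered arrays of different groups correlated at -0.552 to 0.583 (median 0.104, 15 pairs), and those of other pairs at -0.567 to 0.59. With the replicate block, 3 carriers were lower at 14 days, Slc25a12, Slc25a24 and Slc25a46 (6.32% of all genes), with 10 related genes. At 7 days 0 were lower (0.823% of all genes). At 14 against 7 days 0 were higher and 2 lower (7.77% and 8.51% of all genes) with 2 related genes. The 7-day changes of Slc25a28 and Slc25a37 turned to 0.0611 and -0.0704. The pair tests were not run with covariates, array weights, another moderation, the block, the compared groups alone or the dim filter, which could not apply to them.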
